A study of Mus musculus with 3 samples.

Results

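Ppp4r1 and its processed pseudogene Gm15681 are 2 of the 55536 genes annotated in GENCODE M21, and they were described here by the small RNA reads that match them. A read was taken when its first 20 nt, after trimming of the 3' linker, matched an annotated transcript of either gene without mismatch on either strand. Of 915 such reads, 47 that matched more than 1000 places were set aside, all of them in a retained-intron transcript of Ppp4r1. The 868 reads kept held 762 distinct sequences, and they were divided into reads that match Ppp4r1 only, Gm15681 only, or both copies.

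The study sequenced small RNA from fully grown mouse oocytes, the large oocytes at the end of their growth phase. All 3 libraries came from mice given 5 IU of PMSG, which stimulates follicle growth as a gonadotropin, 48 h before. Total RNA was cut from gels in windows of 19-24 nt, 24-30 nt and 19-30 nt, with 1 library per window. Strain, age, number of animals and separation of granulosa cells were not given in the sources used here.

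Mouse oocytes carry endogenous small interfering RNAs (endo-siRNAs), which Dicer cuts from double-stranded RNA and which Argonaute proteins bind. Such double strands can form within an inverted repeat, or between a messenger RNA and an antisense transcript of a pseudogene of the same gene. The ends left by Dicer have 3' overhangs of 2 nt. Ppp4r1 encodes a regulatory subunit of protein phosphatase 4, a serine/threonine phosphatase. A processed pseudogene is a copy of a spliced messenger RNA that was inserted elsewhere in the genome.

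Sequences that can be assigned to 1 copy, and the most frequent of those shared by both, are shown first because the results turn on which copy and which strand a read matches. They are written 5' to 3' as read, with T for U, and capitals mark the bases that differ from the aligned base of the other copy. Coordinates are GRCm38.
Ppp4r1-only, sense, 7 reads: tgatgatgtgaagacagaAgct
Ppp4r1-only, sense, 4 reads: aggttCtgcgagatgtgctGt
Ppp4r1-only, sense, 4 reads: tCgatgaagtcaggataggtGt
Ppp4r1-only, sense, across a splice junction, 4 reads: GgacatgcagtGgaaagttcg
Gm15681-only, antisense, 4 reads: actggagcaTgcacCtcacctg
Gm15681-only, antisense, 4 reads: tgcacagtgcttagGgatctca
Gm15681-only, antisense, 4 reads: tgtcTagcctccccaagggtgt
Gm15681-only, antisense, 3 reads: tAagcagcgctgatcaaaggc
Both copies, antisense, 3 reads: tgttctctctgggctgagtct
Both copies, sense, 3 reads: tgagagagactgcattgctgt

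The 7-read sequence lies in exon 6 of Ppp4r1 at chr17:65811362-65811383, plus strand, and carries G19A: Gm15681 has G and the read has A, counted from the 5' end of the insert. All 7 of its reads came from the 19-30 nt library. The next lies in exon 7 at chr17:65813518-65813538, with 3 reads from the 19-24 nt and 1 from the 19-30 nt library. The third lies in exon 15 at chr17:65835095-65835116, and the fourth runs from exon 14 into exon 15 (chr17:65833130-65834993, intron included).

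The Gm15681 sequences lie on the plus strand of chromosome 8, opposite to the pseudogene, at chr8:99146999-99147020, chr8:99146258-99146279, chr8:99148035-99148056 and chr8:99146454-99146474. The last 3 differ from Ppp4r1 by the single bases C15G, C5T and C2A, Ppp4r1's base (on the same strand as the read) first. The antisense sequence shared by both copies has its Ppp4r1 place in exon 11 at chr17:65824651-65824671, minus strand, and the sense one in exon 4 at chr17:65803911-65803931, plus strand.

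Ppp4r1 lies at chr17:65782573-65841926 on the plus strand and has 13 annotated transcripts. Ppp4r1-201, the transcript used for positions, has 3850 nt in 20 exons, with the coding sequence from nt 89 to the end of the stop codon at nt 2944. Gm15681 lies at chr8:99145386-99148089 on the minus strand, as 1 exon of 2704 nt. It sits within the bounds of Cdh8, a cadherin gene annotated on the same strand, and no kept read matched a Cdh8 transcript. No other annotated gene overlaps Ppp4r1.

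Gm15681 aligned with nt 192 to 2944 of Ppp4r1-201, a span of coding sequence that ends with the stop codon. Of 2687 aligned base pairs, 2470 were identical and 217 different, an identity of 91.9%. The longest run without a difference was 79 nt. Of the 2685 stretches of 20 nt in Gm15681, 467 (17.4%) also occur in Ppp4r1-201, so most reads could be assigned to 1 copy. Neither sequence holds a 20 nt stretch whose reverse complement it also holds.

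Depth was uneven between the libraries. The 19-24, 24-30 and 19-30 nt libraries held 680691, 1423137 and 438199 usable inserts, of which 315512, 344044 and 146771 matched an annotated transcript. A level is stated in RPM, a gene's reads for every 1000000 matched reads, so that 1 read equals 3.17, 2.91 and 6.81 RPM. A floor of 3 reads, used for low counts, equals 9.51, 8.72 and 20.4 RPM. The exact Poisson interval for a count of 0 reaches higher, to 11.7 RPM in the 19-24 nt and 10.7 RPM in the 24-30 nt library. In the same order, 78.6%, 7.34% and 18.4% of the matched reads were microRNA. The 6 annotated germ cell microRNAs of the marker list made up 0.103%, 0.0198% and 1.88% of microRNA reads, against 6.70%, 1.25% and 0.911% for the 7 microRNAs of granulosa cells and stroma and 1.35%, 0.519% and 0.0556% for the 3 annotated ones of blood. Of these, Mir212 had no read in the 19-30 nt library. The marker shares thus differed between libraries beside every level given here, and their part in the levels was not tested. Fewer cells of a type and less RNA per cell cannot be told apart in such bulk RNA. Library, gel window and sequencing run also cannot be told apart, since 26 nt were read in the 19-24 and 24-30 nt libraries and 36 nt in the 19-30 nt library. All intervals are 95% intervals for counting error only. They treat reads as independent, but PCR reads are not independent molecules, so the true spread may be wider. With 1 library per window no test between windows exists.

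Reads that match Ppp4r1 only ran in the sense direction, and reads that match Gm15681 only ran antisense to the pseudogene. Of the 868 reads, 44.4% matched Ppp4r1 only, 39.3% Gm15681 only and 16.4% both. The 19-24 nt library held 116 Ppp4r1-only reads in sense and 5 in antisense, the 24-30 nt library 6 and 0, and the 19-30 nt library 253 and 5. The sense share was 97.4% (Wilson interval 95.3 to 98.6%) of 385 reads in all, and the 19-24 nt library (95.9%, 90.7 to 98.2%) and 19-30 nt library (98.1%, 95.5 to 99.2%) gave close values.

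Gm15681 showed the opposite strand. Its own reads numbered 0, 0 and 3 in sense in the 19-24, 24-30 and 19-30 nt libraries, against 92, 3 and 243 in antisense. The antisense share was 99.1% (97.5 to 99.7%) of 341 reads, against 100% (96.0 to 100%) for the 19-24 nt and 98.8% (96.5 to 99.6%) for the 19-30 nt library. The intervals of the 19-24 and 19-30 nt libraries overlap for each gene, and the 24-30 nt library had too few reads for a share.

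**Figure D1:**
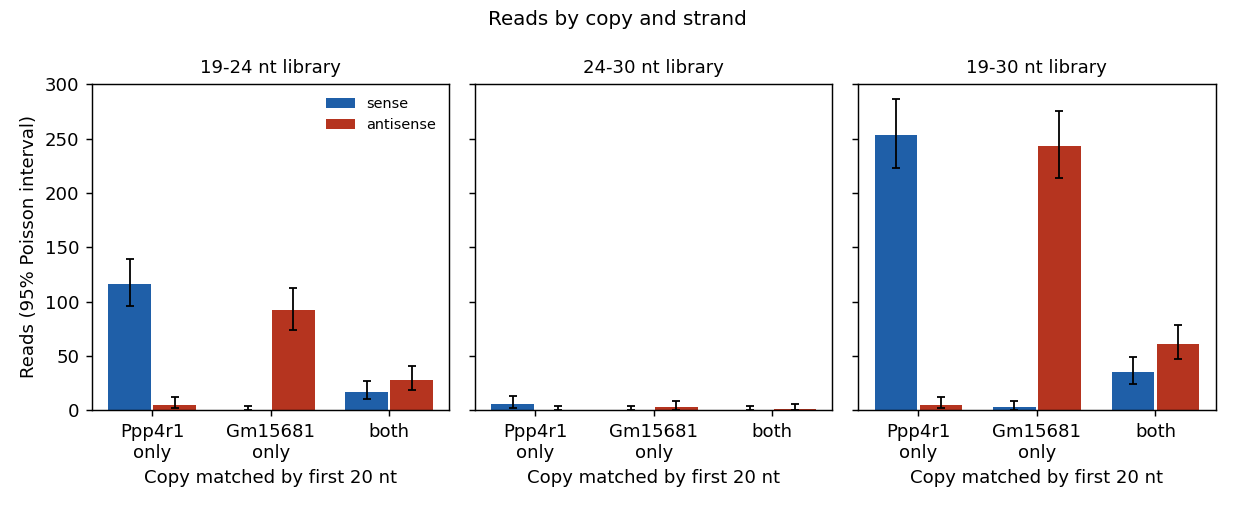
Reads by copy matched (horizontal axis) and strand (colour) in each library, as counts on the vertical axis with 95% Poisson intervals. In the 19-30 nt library the 253 Ppp4r1-only sense reads and 243 Gm15681-only antisense reads stand above all other classes, and the 24-30 nt library holds 10 reads in all.

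Reads that match both copies were found on both strands, 52 in sense and 90 in antisense, an antisense share of 63.4% (55.2 to 70.9%). The 19-24 and 19-30 nt libraries gave 62.2% and 63.5%. These reads cannot be assigned to a copy. Over all reads the strands were nearly equal, with 430 sense and 438 antisense reads (50.5% antisense, 47.1 to 53.8%).

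Reads mostly on 1 strand were common among genes with enough reads to tell. Of the 372 coding genes with at least 20 reads that match a single place among annotated transcripts, 34.9% had at least 90% of them in sense, as Ppp4r1 did. Only 58 of 9941 annotated processed pseudogenes, 0.583%, reached 20 such reads, and 50% of those 58 had at least 90% in antisense, as Gm15681 did. By its 338 antisense reads Gm15681 ranked 6 of 9941 over the libraries together, and 3 within both the 19-24 and the 19-30 nt library.

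The few reads on the minor strand of each copy mostly rested on 1 base. Of the 10 Ppp4r1-only antisense reads, 9 lay over a single difference between the copies, and all 3 Gm15681-only sense reads did. For comparison, 209 of 375 Ppp4r1-only sense reads (55.7%) and 181 of 338 Gm15681-only antisense reads (53.6%) covered at least 2 differences in their first 20 nt. Among reads that covered at least 2 differences, all 209 Ppp4r1 reads were sense and all 181 Gm15681 reads antisense. The following pair shows such a single-base case, with the most frequent Ppp4r1 sequence and a Gm15681 sense read at the same place.
Ppp4r1-only, sense, 7 reads: tgatgatgtgaagacagaAgct
Gm15681-only, sense, 1 read (A19G, chr8:99147615-99147636): tgatgatgtgaagacagaGgct

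All 3 Gm15681-only sense reads, with 3 different 5' ends, were assigned by this same base; 1 of the others carries it as A17G. Whether they hold a sequencing error or come from the pseudogene was not tested.

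The antisense reads that match Ppp4r1 itself were nearly all shared with the pseudogene. Of 100 Ppp4r1 antisense reads, 90 (90%, 82.6 to 94.5%) also matched Gm15681, whereas 12.2% of Ppp4r1 sense reads did. Antisense reads made up 19.0% (15.9 to 22.5%) of all reads that match Ppp4r1.

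Levels are given with each read divided by the number of its matches. Ppp4r1 sense reads reached 395 RPM (328 to 470) in the 19-24 nt, 15.02 RPM (4.99 to 34.6) in the 24-30 nt and 1840 RPM (1627 to 2073) in the 19-30 nt library. Gm15681 antisense reads reached 336 (275 to 406), 10.2 (2.46 to 27.7) and 1863 RPM (1649 to 2098). The 2 classes were close in each library, with overlapping intervals.

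Ppp4r1 antisense reads were fewer, at 60.2 RPM (36.3 to 94.0), 1.45 RPM (0.00143 to 13.6) and 242 RPM (169 to 336), resting on 33, 1 and 66 reads. Gm15681 sense reads, nearly all shared with Ppp4r1, reached 26.9 RPM (12.0 to 52.1) in the 19-24 nt and 140 RPM (85.9 to 215) in the 19-30 nt library, with no read in the 24-30 nt library. In all 4 classes the 24-30 nt library was the lowest and the 19-30 nt library the highest.

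The reads were scarce in the window of longer RNA. Over both genes and strands, the 258, 10 and 600 reads of the 19-24, 24-30 and 19-30 nt libraries gave an RPM 28.1 times higher (15.1 to 59.4) in the 19-24 nt than in the 24-30 nt library, and 141 times higher (76.0 to 295) in the 19-30 nt than in the 24-30 nt library. Once microRNA was left out of the matched reads, these ratios were, in the same order, 121.7 (65.1 to 256.8) and 159.7 (86.24 to 334.8). The 19-30 nt library exceeded the 19-24 nt library 5.00-fold (4.31 to 5.81), and by 1.31-fold (1.13 to 1.53) without microRNA.

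For Ppp4r1 antisense reads alone, each match counted in full, the RPM of the 19-24 nt library exceeded that of the 24-30 nt library 36-fold (6.02 to 1464), a ratio against 1 read. The weighted ratio was 41.4 (3.97 to 43861). With the 24-30 nt count raised to the floor of 3 reads, Ppp4r1 was not 10-fold higher in the 19-24 nt library (60.2 against 8.72 RPM). Of 549 coding genes with at least 20 weighted antisense reads, 3.1% were. In the 19-30 nt library Ppp4r1 was past 10-fold, as were 18% of those genes.

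Of 22028 coding genes, 2.49% had at least 20 weighted antisense reads. Ppp4r1 held 55 and ranked 256 of 22028, and within the 19-24 and 19-30 nt libraries it ranked 81 and 114.

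Along the transcript, reads of both strands were spread over the span that the pseudogene copies and were sparse outside it. Sense reads of Ppp4r1 had 413 of their 5' ends in the 2753 nt aligned with Gm15681, or 150.0 per 1000 nt (136 to 165). The 191 nt before the span held 1, or 5.24 per 1000 nt (0.133 to 29.2), and the 906 nt after it held 5, or 5.52 per 1000 nt (1.79 to 12.9). On these counts, the intervals of the outer parts lie below that of the aligned span. In the 19-24 nt library the sense ends numbered 1, 127 and 1 in the 3 parts in order, and in the 19-30 nt library 0, 281 and 4. A further 8 sense reads matched only Ppp4r1 transcripts other than Ppp4r1-201 and are in none of these counts. Reads near the start of the gene may thus be undercounted. Antisense reads that match Ppp4r1 had 99 of 100 5' ends in the span and 1 after it. However, 90 of these 100 also match Gm15681 and could lie only in the span, as could all Gm15681-only reads. Only the 10 Ppp4r1-only antisense reads could fall elsewhere, so the antisense reads hardly bear on the edges of the span.

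**Figure D2:**
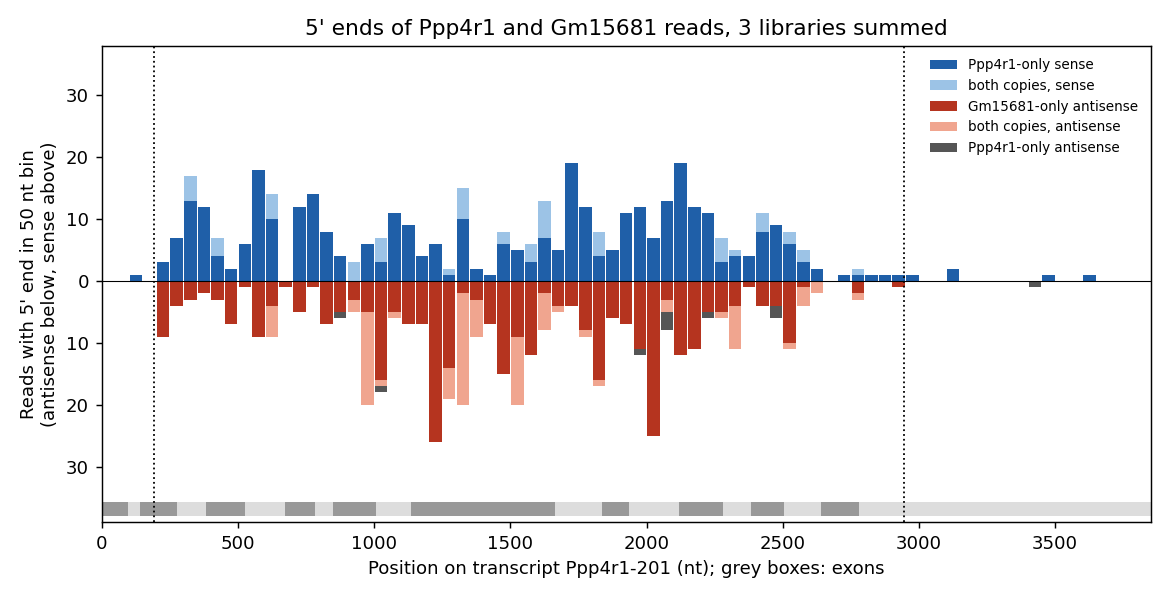
Number of reads with their 5' end in each bin of 50 nt along Ppp4r1-201 (horizontal axis, nt), sense above and antisense below the line, for the 3 libraries summed. Gm15681 reads stand at the aligned position, dotted lines mark nt 192 and 2944, and alternating grey boxes mark exons; most reads lie between the lines, with 5 sense ends after them.

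Within the span, read density was uneven. Each of the 16 exons that lie wholly inside it held sense and antisense reads. Sense ends ranged from 2.11 per 100 nt in exon 19 to 29.0 in exon 4, with a median of 16.5. Antisense ends, Gm15681 reads included at their aligned place, ranged from 1.41 in exon 19 to 29.0 in exon 14, with a median of 12.3. The strands had different profiles: exon 4 held 31 sense and 4 antisense reads, while exon 11, the longest inside the span with 530 nt, held 70 sense and 147 antisense reads. Exon 14 was high on both, with 51 and 54.

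Exon 11 showed the same order in the 19-24 and the 19-30 nt library, which held most reads of the pair. Its reads numbered 20 in sense and 37 in antisense in the 19-24 nt library, and 49 and 108 in the 19-30 nt library. For exon 4 they numbered 10 and 0, and 20 and 4. Taking all reads together, sense inserts covered 78.4% of the 2753 nt and antisense inserts 73.8%. Of these bases, 61.4% were covered on both strands and 9.26% on neither.

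Part of the Ppp4r1 reads crossed exon junctions, as reads from spliced RNA do. Of 367 Ppp4r1-only sense reads on Ppp4r1-201, 49 (13.4%, 10.3 to 17.2%) had a junction within their first 20 nt, and 12 of 19 junctions were crossed. Of all 20 nt stretches in the aligned span, 11.8% cross one, which lies within that interval. The junction after exon 14 held 13 reads, 4 of them the sequence printed above, and that after exon 17 held 9.

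Few sequences were read more than once. Of 762 distinct sequences, 684 (89.8%) had a single read, and the highest count was 7. The 19-24 nt library held 226 distinct 5' ends and the 19-30 nt library 412, of which 84 were shared, 37.2% of the former and 20.4% of the latter. The shares were alike on each strand, with 41 shared sense ends and 43 shared antisense ends.

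Lengths centred on 22 nt in every class but 1. Of the 600 reads in the 19-30 nt library, whose 36 nt reads can size inserts up to 30 nt, 87.2% (84.3 to 89.6%) were 20 to 23 nt long, with a range of 19 to 28 nt. Ppp4r1-only sense reads had 88.9% in this range, with 68 reads of 21 nt, 101 of 22 nt and 50 of 23 nt. Gm15681-only antisense reads had 86.4%, with 53, 96 and 44. Reads in sense on both copies peaked at 21 nt, among only 35 reads.

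**Figure D3:**
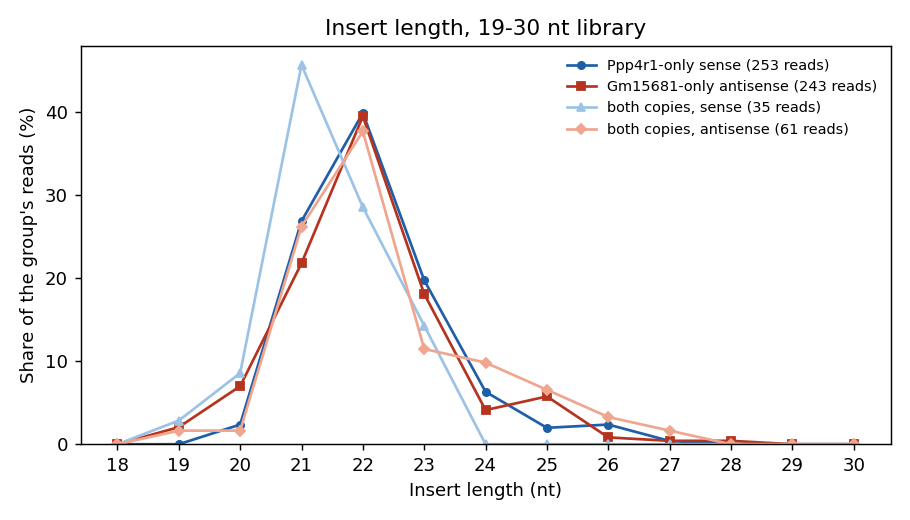
Share of each class's reads (vertical axis, %) by insert length (horizontal axis, nt) in the 19-30 nt library. Ppp4r1-only sense and Gm15681-only antisense reads follow nearly the same curve with its top at 22 nt, and the 35 sense reads of both copies have their top at 21 nt.

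Inserts of 24 nt or longer numbered 70, or 11.7%, and they seldom matched to their end. Only 11 of these 70 matched over the whole insert (15.7%, 9.01 to 26%), against 410 of 523 inserts of 20 to 23 nt (78.4%, 74.7 to 81.7%). The length of the longer inserts is therefore uncertain. In the 19-24 nt library, whose 26 nt reads can size inserts up to 22 nt, 153 of 258 were sized, 84 at 22 nt and 58 at 21 nt. Of the 10 reads in the 24-30 nt library, 2 were sized, at 21 and 22 nt, and 9 lay in the aligned span.

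U was the most frequent first base in each class with more than 10 reads, as is known of many Argonaute-bound small RNAs. It opened 46.1% (41.2 to 51.2%) of Ppp4r1-only sense reads and 57.4% (52.1 to 62.6%) of Gm15681-only antisense reads. The reads of both copies had 67.3% (53.8 to 78.5%) in sense and 65.6% (55.3 to 74.6%) in antisense. For all reads by strand the shares were 48.8% (44.1 to 53.6%) in sense and 59.4% (54.7 to 63.9%) in antisense.

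These shares were above the U content of the sequences and of the other read positions. U makes up 23.3% of the aligned span of Ppp4r1-201 and 27.3% of the antisense strand of Gm15681. At positions 2 to 20 of the reads it ranged from 16.3 to 28.8% for Ppp4r1-only sense and from 18.1 to 34.6% for Gm15681-only antisense reads. The 19-24 and 19-30 nt libraries gave 42.2% and 48.6% for Ppp4r1-only sense reads, and 62.0% and 55.6% for Gm15681-only antisense reads, so the order between classes was the same in each while their intervals overlap in the 19-30 nt library. G was the rarest first base of Gm15681-only antisense reads, with 12 of 338 (3.55%).

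**Figure D4:**
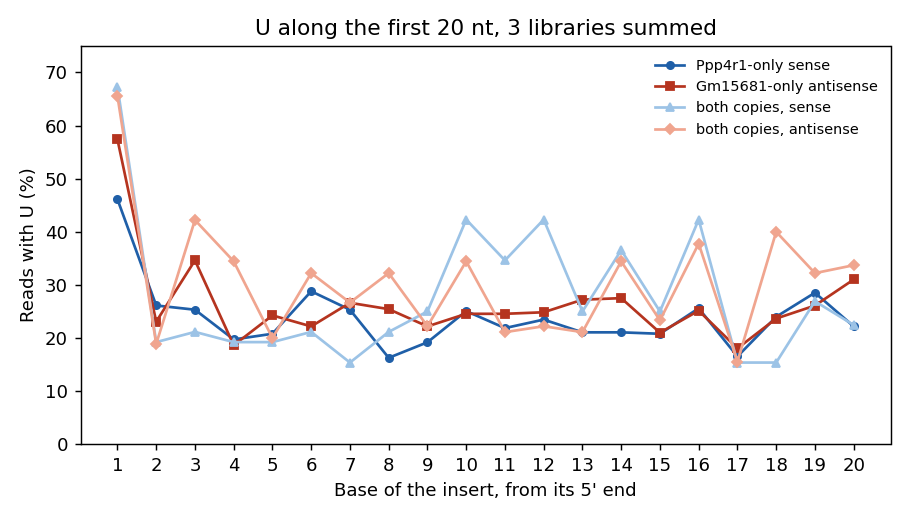
Share of reads with U (vertical axis, %) at each of the first 20 bases of the insert (horizontal axis), for the 3 libraries summed. All 4 classes are highest at base 1, from 46.1% for Ppp4r1-only sense to 67.3% for sense reads of both copies.

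Opposite-strand reads overlapped over all distances, and the overlaps that Dicer ends would give did not stand apart from the others. The 240 distinct 5' ends of Ppp4r1-only sense reads and the 210 of Gm15681-only antisense reads, placed on the alignment, formed 584 pairs with an overlap of 1 to 30 nt. An insert of 21 or 22 nt with a 2 nt overhang at each end overlaps its partner by 19 or 20 nt, and 27 and 23 pairs did so. The other overlaps had 19.1 pairs on average, between 12 and 27, and 27 pairs also occurred at 23 nt. At 10 nt, the overlap left by the piRNA ping-pong cycle, there were 15. Such pairs share ends and are not independent.

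**Figure D5:**
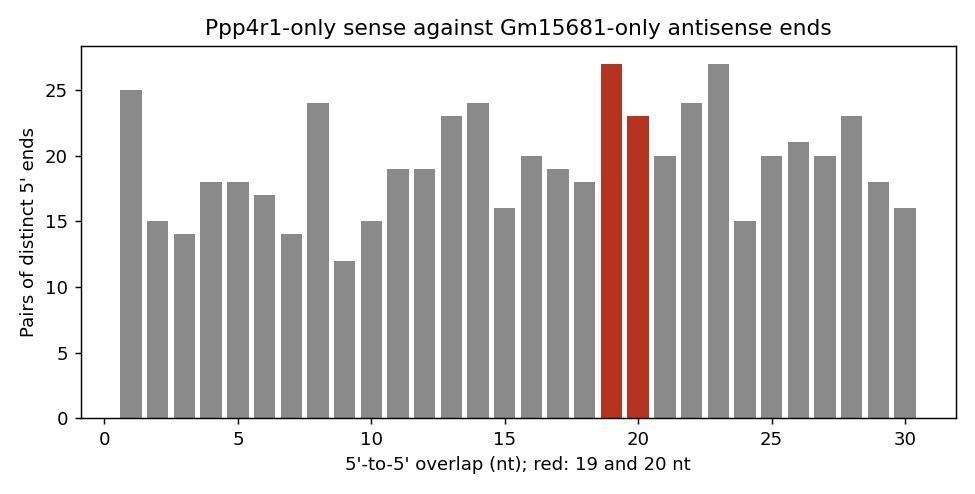
Pairs of distinct 5' ends, Ppp4r1-only sense with Gm15681-only antisense (vertical axis, count), by the overlap between the 5' ends (horizontal axis, nt), with 19 and 20 nt in red. The bars run from 12 to 27 pairs, and the 27 at 19 nt is matched at 23 nt.

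Within a single copy there were fewer pairs. Ppp4r1 sense with Ppp4r1 antisense gave 189, with 6 at 19 nt and 5 at 20 nt against 6.36 on average elsewhere. Gm15681 gave 145, with 4 and 4 against 4.89.

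Only 3 pairs of inserts in the 19-30 nt library left 2 nt 3' overhangs at both ends, and 8 did among the sized reads of all libraries. The 2 of these 3 without a mismatch are printed to show the pairing: the first joins a Ppp4r1-only with a Gm15681-only insert, and the inserts of the second cannot be assigned to a copy. Each insert had 1 read.
Pair 1, Ppp4r1-only, sense (exon 4, chr17:65803925-65803947): ttgctgtcttggaaaGaatTagc
Pair 1, Gm15681-only, antisense (chr8:99147918-99147940): tGattTtttccaagacagcaatA
Pair 2, both copies, sense (exons 11 and 12): acccggatgtgaaagcacagC
Pair 2, both copies, antisense (exons 11 and 12): tgtgctttcacatccgggtca

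In the first pair, 21 of the 23 bases of each insert face each other, 19 as Watson-Crick pairs and 2 as G:U pairs, with no mismatch. In the second, all 19 facing bases are Watson-Crick pairs. The place of both inserts on Ppp4r1 spans the junction of exons 11 and 12, while Gm15681, which they match as well, has 1 exon. The last base of the pseudogene insert in the first pair, and of the sense insert in the second, matched neither copy. The remaining pair had 14 Watson-Crick pairs, 2 G:U pairs and 3 mismatches among 19 facing bases.

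The antisense reads were often near matches to Ppp4r1 messenger RNA, which follows from copies that are 91.9% identical. Of 438, 100 (22.8%) had no difference from Ppp4r1 in their first 20 nt, 120 (27.4%) had 1, 113 (25.8%) had 2 and 52 (11.9%) had 3. A further 37 (8.45%) lay at a gap of the alignment. Bases 2 to 8, the seed with which Argonaute-bound RNAs first pair to a target, were free of differences in 130 of 301 Gm15681-only antisense reads aligned without a gap (43.2%, 37.7 to 48.8%). The same shares over all possible 20 nt stretches were not set beside these, so they show no preference among the reads. Pairing with Ppp4r1 RNA in the oocyte was not measured.

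Other genes of the phosphatase each had few antisense reads. Among 10 genes of protein phosphatase 4 and its relatives, 3 had at least 1 weighted antisense read over the libraries, a share above the 15.3% of coding genes. The list includes Ppp4r1l-ps, a transcribed pseudogene and not a coding gene, with 0.00521 in antisense and 0.0591 in sense. Ppp4r2, a regulatory subunit, had 1.73, Ppp2ca, the catalytic subunit of protein phosphatase 2A, had 1.47, and Ppp4r3a, a further regulatory subunit, had 1.07. The catalytic subunit Ppp4c had 0.571 in antisense and 7.04 in sense. Ppp4r4 and Ppp6c had no read, and Ppp4r3b, Ppp2cb and Igbp1 had sense reads only. The highest of the 10 thus had 1.73, against 55 for Ppp4r1 itself.

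Among 14 small RNA pathway genes, 2 had at least 1 weighted antisense read, a share near the 15.3% of all coding genes. Dicer1, which encodes the enzyme that cuts double-stranded RNA, had 12.3 in antisense and 55.5 in sense, and Dgcr8, the partner of Drosha in microRNA processing, had 1.13 and 78.2. Ago2, an Argonaute that cuts its targets, had 9.5 in sense and 0.464 in antisense. Ago1, Tarbp2, Piwil1, Piwil2 and Piwil4 had none on either strand.

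By the way their RPM divides over the 3 libraries, the coding genes most like Ppp4r1 in antisense were Glcci1, Lgalsl, Rrp7a, Zfp281 and Gm45062, of 549 ranked. Of its summed antisense RPM, Ppp4r1 had 19.8%, 0.479% and 79.7% in the 19-24, 24-30 and 19-30 nt libraries, and Glcci1 had 19.8%, 0.0894% and 80.1%. Over reads of both strands, the processed pseudogenes most like Gm15681 were Gm13176, Gm14633, Gm8492, Gm10689 and Gm11877, of 179. Gm15681 had 15.3%, 0.428% and 84.3%, and Gm13176 had 15.1%, 0.419% and 84.5%. With 3 libraries such likeness is a description only. A read of the pair matched other genes in only 2 cases, 1 with Umodl1 and 1 with Casp9, Gm11423, Rgs9bp, Ss18l2 and Tars2.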

How the data were processed

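Small RNA of fully grown mouse oocytes was sequenced in 3 libraries, 1 per gel window, with an Illumina 1G machine, per the labels. The deposited files hold reads with a quality per base, other values than counts; the 3' linker was still present. An aligner or genome build for them was not given in the sources used here. Since the design had assumed counts, reads were counted here and no test was made.

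The linker was trimmed at an overlap of at least 4 called bases in 26 nt and 6 in 36 nt reads, with up to 20% mismatches. Inserts under 18 nt, low-complexity inserts, inserts with an uncalled base in their first 18 nt, and the 311671 reads of 36 nt in which no linker was found were set aside. The first 20 nt of each insert (the whole insert at 18 or 19 nt) were matched without mismatch to both strands of 141767 GENCODE M21 transcripts (GRCm38). No genome sequence was used, so unannotated copies were not analysed here. Reads were weighted by 1 over their places in levels and counted in full in shares. The copies were aligned with Biopython 1.88 (local; match 2, mismatch -3, gap open -5, extend -2). Wilson, exact Poisson and conditional binomial intervals came from SciPy 1.17.1, and Python 3.11.15 was used. Assignment to copy and strand was tested on simulated reads.

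The members, gene lists and marker lists were chosen with earlier results of these data known. Besides the members, the genes named are those of the 2 lists, every gene sharing a read, and the 5 coding genes and 5 processed pseudogenes nearest by their division over libraries. Alternatives changed the count, match length, mismatches, linker overlap and denominator.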

Additional observations from a re-analysis of the deposited data

Results flagged for a closer look

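In 311671 reads of 36 nt no linker was found, and they entered only some of the alternative values below. Of them, 149 began with 20 nt that match Ppp4r1 or Gm15681. The same library had 438199 usable inserts, of which 600 were kept as reads of the pair. The 149 reads comprised 76 Ppp4r1-only sense, 2 Ppp4r1-only antisense, 57 Gm15681-only antisense, 5 sense and 9 antisense reads of both copies. No Gm15681-only sense read was among them. None matched over all 36 nt. The match from the 5' end stopped after a median of 22 nt, between 20 and 27 nt, and 13 matched over more than 23 nt.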

How the results depend on the processing

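Of 73 alternative values, 62 stayed within the interval of the reported value and 11 did not, and none reversed a direction. The Ppp4r1 antisense level in the 19-24 nt library was 104.6 RPM with every match in full, 281.1 reads per 1000000 matched reads without microRNA and 27.91 reads per 1000000 usable reads. In the 19-30 nt library it was 449.7 RPM in full, 81.01 reads per 1000000 usable reads, 153.3 RPM with the whole insert matched and 381.5 RPM with up to 1 mismatch. The values in full, without microRNA and per usable read follow from the larger count or the other denominator; a whole match removes reads and a mismatch adds them. Matching the first 18 nt raised the share of reads on both copies to 21.05%. With at least 2 differences between the copies, an alternative chosen after seeing the data, both strand shares were 100%. Whole-insert matching raised the share of 20 to 23 nt reads to 95.79%. The 24-30 nt library was the deepest but held only 10 reads of the pair, so each ratio against it has a wide interval; the 19-30 nt library was the shallowest. No paired analysis was possible because there was 1 library per window, which also left no replicate to leave out.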
